A study of Mus musculus with 18 samples.

Results

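Hepatocyte nuclei pulled from frozen liver were compared with hepatocyte nuclei pulled from fresh liver of the same fed mice. The comparison used 6 of the 18 libraries of the series, 3 from fresh and 3 from frozen tissue, and took every gene of the count table. All mice were female and of the HEP-INTACT line. The fed animals ate ad libitum and were killed together with mice that had fasted for 16 h from zeitgeber time 12. The labels call the pulled-down material hepatocyte nuclei. The promoter and the tagged protein of the line, its genetic background and the age of the mice are not stated in the labels. Further libraries of the same design served as references, namely the supernatant left after the pull-down from fresh liver, and the fresh and frozen pull-downs of the fasted mice. Per the labels, each fed mouse gave 1 fresh and 1 frozen pull-down, so the comparison is made within mice.

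INTACT isolates nuclei of 1 cell type from a mixed suspension, because only that cell type carries a tag on its nuclear envelope that antibody-coated beads can hold. In liver, hepatocytes make up most of the tissue mass, and the other nuclei belong to sinusoidal endothelial cells, Kupffer cells (the resident macrophages), stellate cells, bile duct cells and lymphocytes. Freezing lets livers be stored before nuclei are made, so a comparison of both preparations bears on how archived tissue can be used. Nuclear RNA is rich in unspliced transcripts, and its level follows recent transcription more closely than that of cytoplasmic RNA.

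Total counts were 54166985, 25675086 and 42128417 in the fresh pull-downs A, B and C, and 34479356, 13828945 and 49027343 in the frozen ones. Frozen library B was thus the shallowest. Levels below are CPM, that is counts scaled to the total of all counted reads of a library, and the letters name pairs of a fresh and a frozen library. Libraries with the same letter deviated together from their group means, with correlations of 0.75, 0.564 and 0.802 for pairs A, B and C, against -0.129 to -0.509 for different letters. The titles of 17 libraries carry numbers that run on without a gap, and 1 of the 3 frozen libraries of fed mice carries a number far outside that run. The labels do not tell which letter it has. In the count table the column of frozen B stands last, away from the other frozen columns, but the order of columns was not used to assign libraries.

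The pulled-down material had the transcripts of hepatocytes in both preparations. Summed over 21 hepatocyte markers, the level was 22020, 22950 and 18080 CPM in the fresh libraries A, B and C and 21600, 22630 and 18760 CPM in the frozen ones, against a mean of 1126 CPM in the supernatant of fed mice. The summed levels of the preparations overlapped, and within each letter they stayed close. Over 5532 genes that were higher in the pull-down than in the supernatant of fasted mice, the median absolute log2 difference between fresh and frozen was 0.0851 in pair A, 0.194 in pair B and 0.0846 in pair C. Libraries of the same preparation but of different mice lay 0.177 to 0.286 apart on that measure.

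Frozen pull-downs held more RNA of genes that mark Kupffer, endothelial and lymphoid cells, while transcripts that mark hepatocytes differed little. Of 12689 genes tested with edgeR's quasi-likelihood test and the mouse as a block, 176 rose (1.39%) and 5 fell (0.0394%) in frozen relative to fresh material at a Benjamini-Hochberg adjusted p under 0.05. Without that block 0 genes passed in either direction, and 909 had an unadjusted p under 0.05, against 1559 with it. The 3 frozen libraries lay above all 3 fresh ones in 1018 genes (8.02%) and below them in 391 (3.08%).

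The genes that rose were divided by where their RNA is found, using the pull-down and the supernatant of the fasted mice, which are other animals. Of 4323 genes higher in that supernatant, 170 rose and 1 fell, the syntaxin gene Stx16. Of 5532 genes higher in the pull-down, 1 rose, the sarcoglycan gene Sgcz, and 4 fell. In the 2676 genes that were in neither class, 4 rose and 0 fell. The median log2 difference was 0.0751 in the supernatant class and -0.0399 in the pull-down class.

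**Figure D1:**
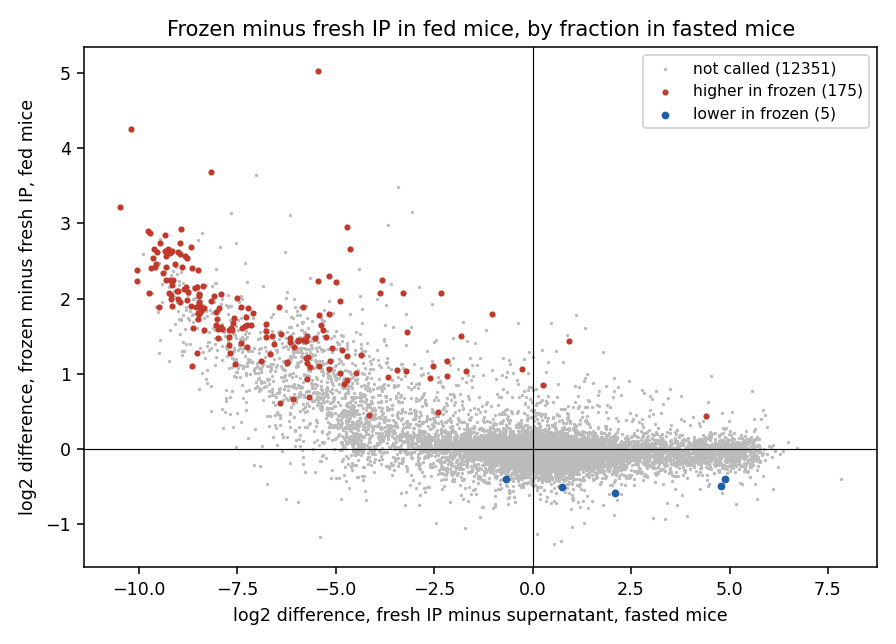
Each point is 1 gene. The horizontal axis is its log2 difference between fresh pull-down (IP) and supernatant in fasted mice and the vertical axis its log2 difference between frozen and fresh pull-down in fed mice, with genes passing the edgeR test in red (higher in frozen) and blue (lower). Of the genes that rose, 170 fell in the class higher in supernatant, and the cloud to the right lies close to 0, with a median of -0.0399 in the pull-down class.

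The increases were large as ratios and small as levels. Across the 176 genes that rose, the median log2 difference was 1.80, with a range of 0.436 to 6.63. Their median level was 1.55 CPM in fresh and 5.4 CPM in frozen pull-downs, and 280 CPM in the supernatant. For the 164 of them with at least 5 CPM in the supernatant of fed mice, the increase amounted to a median of 0.967% of the supernatant level, with quartiles of 0.589 and 3.28%, and it was under 1% in 84 genes and over 10% in 13. All 176 had the same sign in the 3 pairs. In 169 the frozen libraries lay above every fresh one, against 8.02% of all genes tested. Both counts follow in part from the choice of these genes by a paired test on the same libraries. Pair B showed the largest difference in 128 of the 176, and frozen library B had the highest level in 145.

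Kupffer cell genes showed the strongest increase among the lists examined. Of 18 Kupffer cell and macrophage markers tested, 11 rose and 0 fell, against 1.39 and 0.0394% of all genes tested. The list had a median log2 difference of 1.86, against -0.0117 over all genes tested. Vsig4, a complement receptor of resident macrophages (chromosome X, 96247203 to 96293438 on mm10), was at 0.425, 1.79 and 0.926 CPM in fresh A, B and C and at 4.03, 13.2 and 5.18 CPM in frozen. Its log2 difference was 2.85 ± 0.19 (value fitted by edgeR, SE over 3 pair differences, adjusted p = 0.0149), and every frozen library lay above every fresh one. Its level in the supernatant of fed mice was 1213 CPM, so that even frozen B stayed far below the fraction where these nuclei collect.

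Adgre1, which encodes the macrophage antigen F4/80 (chromosome 17, 57358686 to 57483529), was at 0.923, 1.95 and 1.07 CPM in fresh and at 4.58, 16.3 and 5.79 CPM in frozen pull-downs. The groups did not overlap, frozen B was highest, and the log2 difference was 2.61 ± 0.24 (adjusted p = 0.0149). Timd4, a receptor for dying cells on Kupffer cells, rose by 2.63 ± 0.54 (adjusted p = 0.0336), from 0.425, 0.584 and 0.475 CPM to 2.09, 7.59 and 1.84 CPM. C1qb, a chain of complement C1q, rose by 2.37 ± 0.21 (adjusted p = 0.0318). Clec4f, Cd163, Cd5l, Csf1r, Ctss, Marco and Ptprc made up the rest of the 11, at log2 differences of 1.61 to 2.25. Among the markers that did not pass, Cd68 stood at 0.20 and Mpeg1 at 0.69, and the latter differed by 0.675, 0.667 and 0.645 in pairs A, B and C.

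Endothelial markers moved in the same direction with a smaller share of calls. Of 20 tested, 5 rose and 0 fell, against 1.39 and 0.0394% of all genes tested. The list had a median log2 difference of 1.29. In 18 of the 20 all frozen libraries lay above all fresh ones, against 8.02% of all genes tested. The 5 were Pecam1, Cdh5, Ptprb, Stab1 and Mrc1, the last of which macrophages also express. Pecam1, an adhesion molecule of vessel walls (chromosome 11, 106654213 to 106715281), was at 1.61, 1.75 and 2.71 CPM in fresh and at 6.99, 6.65 and 5.51 CPM in frozen pull-downs, without overlap, and rose by 1.66 ± 0.32 on the log2 scale (adjusted p = 0.0343). Cdh5, the cadherin of endothelial junctions (chromosome 8, 104101625 to 104144502), rose by 1.65 ± 0.32 (adjusted p = 0.0343), from 1.16, 2.34 and 2.66 CPM to 4.38, 9.98 and 5.41 CPM. The phosphatase gene Ptprb rose by 1.43 ± 0.39 (adjusted p = 0.0386), from 12, 15.9 and 24.6 CPM to 42.6, 57.8 and 38.7 CPM.

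Pair C contributed the smallest endothelial difference. Stab2, a scavenger receptor of liver sinusoids that is among the markers just outside the threshold, differed by 1.46, 1.90 and 0.529 in pairs A, B and C (1.29 by edgeR, adjusted p = 0.051). Flt1 and Kdr, receptors for VEGF, differed by 1.40 (adjusted p = 0.058) and 1.29 (adjusted p = 0.056). Summed over the 20 markers, the level went from 115.6 to 285.7 CPM in pair A, from 133.9 to 403.1 CPM in pair B and from 201.6 to 291.0 CPM in pair C. Fresh C was the highest of the fresh libraries, and every frozen library exceeded it. Against the mean of the supernatants of fed mice, these sums were 2.07, 2.4 and 3.62% in fresh and 5.12, 7.23 and 5.22% in frozen material.

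The Kupffer list was at a lower share of its supernatant level than the endothelial list in each library. Its sum over 18 markers was 13.53, 28.24 and 16.52 CPM in fresh A, B and C, or 0.150, 0.313 and 0.183% of the supernatant mean of 9033 CPM. In frozen material it was 43.01, 129.1 and 48.05 CPM, or 0.476, 1.43 and 0.532%. Frozen B stood apart, above the other frozen libraries, and pair B had the largest ratio, 4.57, against 3.18 in A and 2.91 in C.

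**Figure D2:**
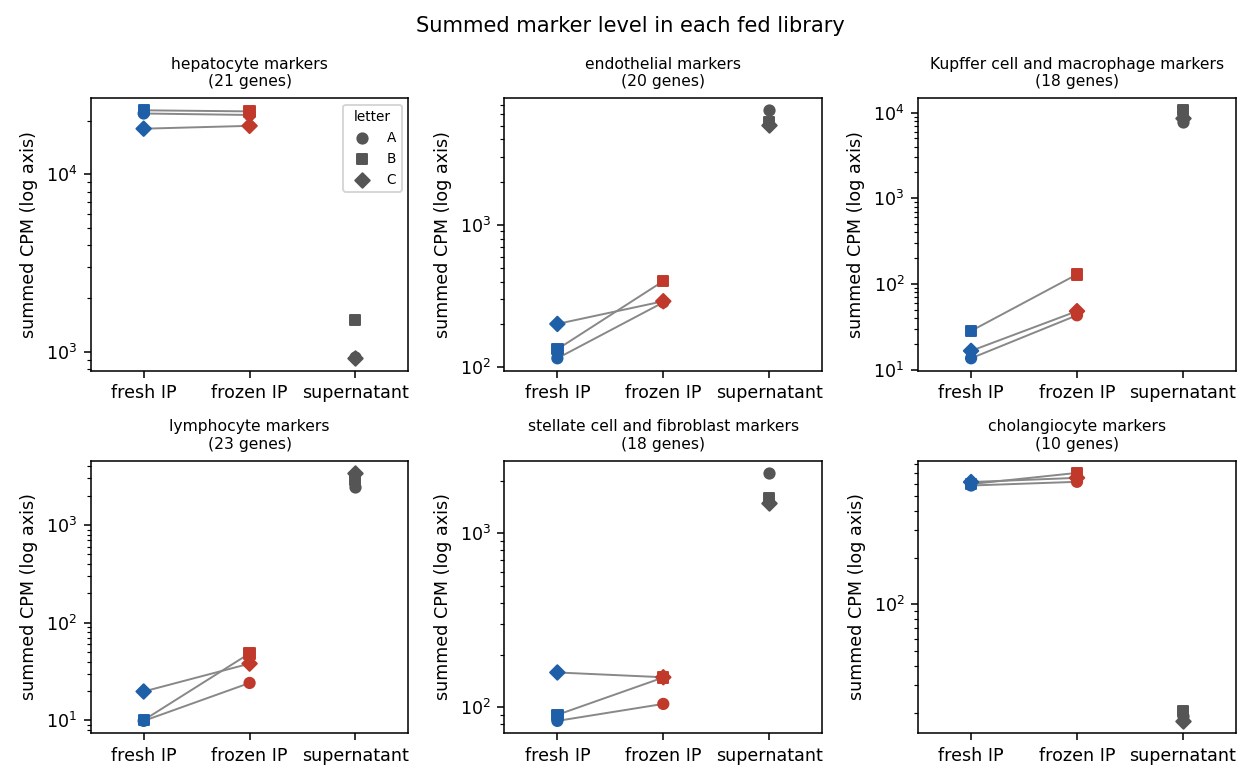
Summed level of 6 marker lists in each library of fed mice, in CPM on a log axis. Lines join fresh (blue) and frozen (red) pull-down (IP) libraries of 1 letter and grey marks are supernatants. Pkhd1 makes up most of the cholangiocyte sum in the pull-downs. The hepatocyte sum stays between 18080 and 22950 CPM, while the endothelial sum rises from 115.6 to 201.6 CPM in fresh to 285.7 to 403.1 CPM in frozen material and the Kupffer sum from 13.53 to 28.24 CPM to 43.01 to 129.1 CPM.

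Lymphoid genes were low in the pull-downs throughout. Of 14 lymphocyte markers tested, 2 rose and 0 fell, against 1.39 and 0.0394% of all genes tested. All 14 had a positive log2 difference, and the median was 1.18. The other members of the list failed the filter on low counts, which the frozen libraries alone can satisfy. For genes near the floor the shared sign may thus follow in part from the filter. Ebf1, a B cell transcription factor that stromal cells also express, rose by 2.03 ± 0.27 (adjusted p = 0.0251), from 0.812, 0.896 and 2.63 CPM to 3.86, 5.21 and 7.69 CPM, and the groups did not overlap. Skap1, a T cell adaptor, rose by 1.73 ± 0.24 (adjusted p = 0.0271), from 1.14, 1.60 and 1.99 CPM to 3.77, 7.38 and 5.04 CPM. Bank1, a B cell scaffold, differed by 1.70, 3.60 and 1.21 in the 3 pairs and did not pass (adjusted p = 0.058). The summed level of the 23 genes of the list was 9.877, 10.05 and 19.75 CPM in fresh and 24.16, 48.52 and 38.12 CPM in frozen pull-downs. Csf3r, the receptor for granulocyte colony-stimulating factor, was the called gene of the neutrophil and erythroid list, at 2.18 ± 0.24 (adjusted p = 0.0445). The hemoglobin genes Hba-a1, Hba-a2 and Hbb-bs and the neutrophil markers Ly6g and Retnlg had 0 counts in the 6 pull-downs.

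Stellate cell genes had a smaller median difference. Of 17 tested, 1 rose and 0 fell, against 1.39 and 0.0394% of all genes tested. All 17 had a positive log2 difference, with a median of 0.323. In 5 all frozen libraries lay above all fresh ones, against 8.02% of all genes tested. The defining stellate genes Reln (0.16), Lrat (0.06), Hgf (0.14), Colec11 (0.05) and Rgs5 (0.06) had adjusted p of 0.73 or more. The collagen genes Col1a1 (2.20, adjusted p = 0.069), Col3a1 (1.34, adjusted p = 0.058) and Col1a2 (1.32, adjusted p = 0.090) had larger values that did not pass. Col1a1 differed by 2.18, 3.09 and 1.09 in pairs A, B and C. The summed level of the list was 83.46, 90.44 and 158.5 CPM in fresh and 104.5, 148.3 and 148.8 CPM in frozen libraries, so the groups overlapped, and in pair C the frozen library was the lower one.

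Acta2, the actin of smooth muscle and activated stellate cells (chromosome 19, 34240336 to 34255373), was the called member. It had 1, 1 and 0 counts in the fresh libraries and 30, 11 and 13 counts in the frozen ones. It therefore passed the filter on low counts only through the frozen group, where it is high. Over the 3 libraries of each group this is a ratio of 33.8 in CPM, with a counting interval of 8.92 to 286 at 95% confidence. That interval covers counting error in the pooled counts only and leaves out the spread between mice. Its frozen level of 0.644 CPM was above the 0.297 CPM of the supernatant, in contrast with the Kupffer genes above.

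Several other genes rose by a large share of their supernatant level and were picked out after their values were seen. Myh11, the heavy chain of smooth muscle myosin, was at 0.683, 0.234 and 0.855 CPM in fresh and at 4.0, 2.17 and 2.39 CPM in frozen pull-downs, an increase equal to 26.8% of its supernatant level of 8.45 CPM. Sema5a, a semaphorin, rose by 30.9% of its supernatant level, Bicc1, an RNA-binding protein, by 27.1%, Thsd4 by 21.1%, Gpm6a by 19.4%, Glis3 by 17.5% and Ncam1, the neural cell adhesion molecule, by 17.1%. Bicc1 was at 16.6, 17.1 and 21.3 CPM in fresh and at 35.5, 35.5 and 35.7 CPM in frozen libraries, so that its frozen libraries differed by far less than its groups did. For comparison, Vsig4, Adgre1 and Timd4 rose by 0.53, 0.51 and 0.53% of their supernatant levels.

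In 8 of the genes that rose the frozen pull-down stood above the supernatant of fresh liver, namely Dmbt1, Acta2, Arhgef28, Cttnbp2, Spp1, Prdm16, Ppp2r2b and Sgcz. Spp1, which encodes osteopontin and is made by bile duct cells and by some macrophages, was at 1.05, 2.18 and 1.28 CPM in fresh and at 2.55, 6.44 and 3.49 CPM in frozen pull-downs, against 0.646 CPM in supernatant. It rose by 1.43 ± 0.10 (adjusted p = 0.0312). Of 7 cholangiocyte markers tested it was the 1 that rose, against 1.39% of all genes tested. All 7 had a positive log2 difference, with a median of 0.503, and the limit set by the filter on low counts applies here too. Pkhd1, a fibrocystin gene of that list, was at 507 ± 17.0 CPM (SD, n = 3) in fresh and 563 ± 57.2 CPM in frozen pull-downs, higher than in supernatant (13.7 CPM), and did not pass (0.15, adjusted p = 0.445). It made up most of the summed level of the list, which was 583.5, 596.1 and 614.3 CPM in fresh A, B and C. Prdm16, a zinc finger regulator, rose by 1.06, from 3.42, 4.25 and 3.89 CPM to 8.03, 7.01 and 8.67 CPM.

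Dmbt1, a secreted scavenger protein of epithelia (chromosome 7, 131032076 to 131121628), had the largest fitted difference. It had 1, 0 and 1 counts in the fresh libraries and 130, 10 and 35 in the frozen ones, a ratio of 110 in CPM with a counting interval of 29.9 to 913. As for Acta2, the interval leaves out the spread between mice, and most of the frozen counts came from library A. The frozen libraries ranged from 0.714 to 3.77 CPM, and here library A, not B, was the highest. Its supernatant level was 0.0926 CPM. The gene was not tested in the fasted mice because it failed the filter on low counts there. In fed mice it met that filter only through the frozen libraries.

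Other genes with the largest differences included immune receptors and signalling genes. They were the leukocyte immunoglobulin-like receptors Lilra5 (3.21) and Lilrb4a (2.87), the sialic acid receptor Siglec1 (2.74), Fgd2 (2.74), the inflammasome sensor Nlrp1b (2.66), Ly86 (2.64) and the co-stimulatory molecule Cd86 (2.62). The potassium channel genes Kcnj16 (2.90), Kcna2 (2.69) and Kcnk13 (2.61) stood among them. Each of these was at 0.0369 to 0.701 CPM in fresh libraries. At such levels a gene can pass the filter on low counts through the frozen libraries alone. Kcnj16, for instance, went from 0.314, 0.273 and 0.261 CPM to 1.33, 3.62 and 2.26 CPM, and was at 431 CPM in the supernatant. Reads of the Lilr family can be shared among its near-identical members, so its single-gene values are uncertain.

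**Figure D3:**
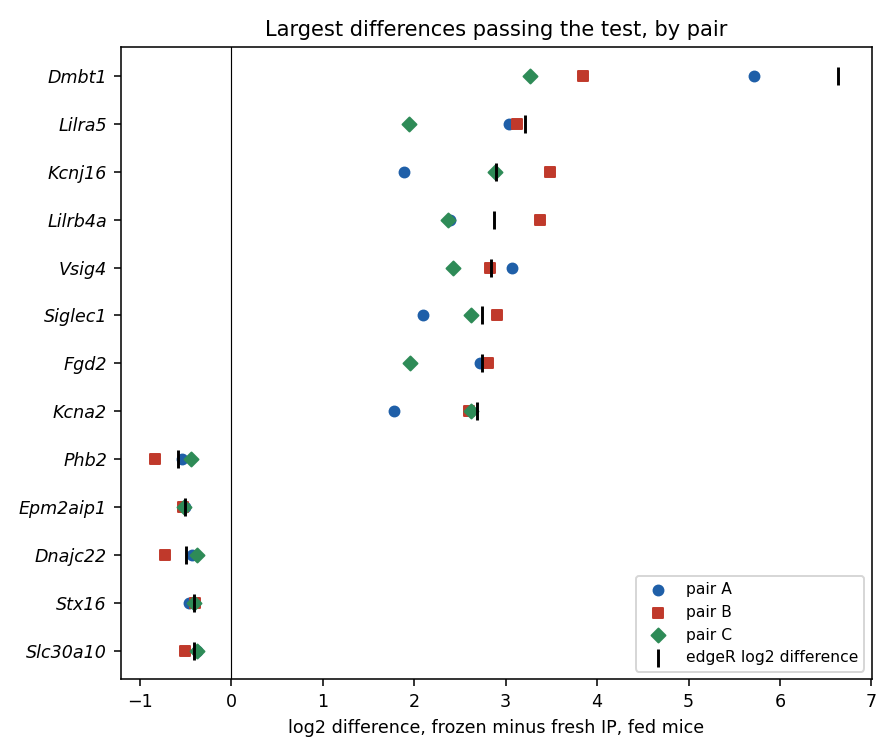
Log2 difference between frozen and fresh pull-down (IP) in each pair (colored marks, log2 CPM with a prior count of 2) and as fitted by edgeR (black bars), for the 8 largest increases with at least 1 CPM in frozen libraries and the 5 decreases. A gene was drawn only if all of its pairs had the same sign, so its marks lie on the same side of 0 by choice. The fitted values of the decreases run from -0.59 to -0.40. The prior count holds the pair values of Dmbt1 below its fitted value of 6.63.

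The decreases were few and small, and 4 of the 5 concerned genes that are higher in the pull-down. Phb2, which encodes the mitochondrial scaffold protein prohibitin 2 (chromosome 6, 124712289 to 124716945), was at 48.0, 57.3 and 45.3 CPM in fresh and at 33.8, 32.2 and 33.0 CPM in frozen pull-downs and fell by 0.59 on the log2 scale (SE 0.12, adjusted p = 0.038). Epm2aip1, whose product binds laforin, fell by 0.50 (SE 0.0052, adjusted p = 0.0333), with nearly the same difference in each pair. Dnajc22, a DnaJ-family gene, was at 99.2, 103 and 89.2 CPM in fresh and at 75.2, 62.8 and 68.3 CPM in frozen material, and fell by 0.49 (SE 0.11, adjusted p = 0.0445). Slc30a10, a manganese exporter, fell by 0.40 (SE 0.05, adjusted p = 0.0445). Stx16, a syntaxin of Golgi transport, fell by 0.41 (SE 0.02, adjusted p = 0.038). In all 5 every frozen library lay below every fresh one, against 3.08% of all genes tested. This too follows in part from their choice by the test. None of the 4 pull-down genes passed when the genes higher in supernatant were left out of the fit (adjusted p of 0.236 to 0.354), and with a filter of 1 CPM in 3 libraries Dnajc22 and Slc30a10 did not (0.054 each). Slc30a10 and Stx16 did not pass without pair A or without pair C, nor Epm2aip1 without pair A, and without pair B the number of decreases was 433 in place of 5.

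Sgcz, a sarcoglycan gene that spans more than 1 Mb (chromosome 8, 37522554 to 38661508), was the pull-down gene that rose. It was at 91.6, 67.0 and 65.4 CPM in fresh and at 114, 99.8 and 87.5 CPM in frozen libraries. Fresh A exceeded frozen C, so the groups overlapped, and the increase of 0.44 ± 0.08 (adjusted p = 0.0474) is one within pairs. It did not pass with RLE scaling (adjusted p = 0.0512), with a filter of 1 CPM in 3 libraries (0.0588), without pair C (0.0646) or when only genes not higher in supernatant were tested (0.316).

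None of the hepatocyte lists held a gene that passed the test in fed mice. At 1.39% of all genes rising and 0.0394% falling, this says little for lists of this size. In fasted mice 0 of the 21 hepatocyte markers rose and 6 fell, against 11.0 and 12.1% of all genes there. All 21 hepatocyte markers had log2 differences between -0.16 and 0.19, with a median of -0.0246. Alb, serum albumin, was at 2004, 2009 and 2057 CPM in fresh and at 2097, 2425 and 2421 CPM in frozen libraries. It was the 1 marker of the list whose groups did not overlap, with a difference of 0.19 ± 0.07 (adjusted p = 0.299). Cps1, a mitochondrial enzyme of the urea cycle, stood at 8114, 7729 and 4856 CPM in fresh and 7345, 8291 and 4884 CPM in frozen material, with a difference of -0.01 ± 0.08. Mouse C was the lowest in both preparations. Sun1, of the inner nuclear membrane, was at 161, 164 and 117 CPM in fresh and 165, 140 and 114 CPM in frozen libraries (-0.07 ± 0.08, adjusted p = 0.775).

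Genes that mark positions along the liver lobule did not pass the test. Of 14 pericentral genes and 13 periportal genes 0 passed in either direction, with median log2 differences of 0.019 and -0.00162. The shares over all genes, 1.39% rising and 0.0394% falling, leave few calls to be found in such lists. In fasted mice 4 pericentral genes rose and 2 fell. Of the periportal genes 1 rose and 4 fell there, against 11.0 and 12.1% of all genes. Cyp2e1, a pericentral cytochrome P450, was at 1002, 1373 and 1883 CPM in fresh A, B and C and at 1041, 1232 and 1903 CPM in frozen. Pck1, the gluconeogenic enzyme, was at 1482, 746 and 229 CPM in fresh and at 1547, 547 and 290 CPM in frozen. For both genes the mice came in the same order in either preparation, and the range over mice exceeded every difference within a pair.

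The metabolic lists held no called member either, and the overall shares of 1.39% higher and 0.0394% lower leave few calls to be found in lists of this size. None of 19 PPAR-alpha and fasting-induced genes, 13 lipid synthesis genes, 20 cholesterol synthesis genes, 18 xenobiotic metabolism genes, 19 circadian clock genes and 48 respiratory chain genes passed, nor did any of 19 nuclear envelope and 15 cell cycle genes. The xenobiotic list had a median of -0.0814 and the lipid synthesis list one of -0.101, the lowest of these. The summed xenobiotic level was lower in the frozen library of each pair, at 0.925, 0.890 and 0.924 of the fresh level in A, B and C, and in fasted mice at 0.883, 0.926 and 0.898. Cyp3a25 of that list was at 2750, 4323 and 1873 CPM in fresh and 2344, 3794 and 1782 CPM in frozen libraries (-0.16 ± 0.06, adjusted p = 0.379).

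Lists of genes that respond to stress held no called member in fed mice, which at 1.39% of all genes rising and 0.0394% falling says little for lists of this size. Of 19 immediate early genes tested, 14 heat shock chaperones, 21 genes of the unfolded protein and integrated stress response, 19 hypoxia-responsive genes, 15 NF-kappaB and cytokine genes, 14 p53 targets and 16 acute phase genes, 0 were called. Medians ran from -0.0554 for the NF-kappaB list to 0.0417 for the chaperones. Fos was low in both preparations, at 0.336 CPM in fresh and 0.329 CPM in frozen, against 4.64 CPM in supernatant. Zfp36, an mRNA decay factor, was at 61.8, 93.4 and 49.0 CPM in fresh and 56.6, 48.9 and 51.8 CPM in frozen libraries, and its difference of -0.31 ± 0.31 had an adjusted p of 0.575. Its high value was fresh B. In fasted mice 6 of the 19 immediate early genes fell, Zfp36 among them (-0.40), and 5 of the 14 chaperones rose, against 12.1 and 11.0% of all genes there. For Zfp36 the fed difference was of the same order, but with an SE of 0.31 it could not be told from 0. Whether the fed comparison could detect such differences in the other genes was not tested.

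Vegfa, a growth factor gene of the hypoxia list (chromosome 17, 46016993 to 46032377), was among the stress genes with a larger value. It was at 546, 597 and 605 CPM in fresh and at 473, 331 and 474 CPM in frozen pull-downs, so the groups did not overlap and frozen B was lowest. Its log2 difference was -0.46 ± 0.19 (adjusted p = 0.107), and in the fasted mice it fell by 0.42. Atf4, the transcription factor of the integrated stress response, was similar, with -0.315, -0.936 and -0.224 in pairs A, B and C (-0.46, adjusted p = 0.164). Tef, a clock output gene, differed by -0.174, -0.442 and -0.251 (-0.28, adjusted p = 0.125). All of these were lower in the frozen library of each pair without passing. Pfkfb3, a glycolytic regulator of the hypoxia list, went the other way, at 0.662, 1.005 and 0.347 (0.66, adjusted p = 0.090).

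Pair B stood apart from the others. The median absolute gap between pair differences was 0.117 for A against C, 0.268 for A against B and 0.238 for B against C, over 12419 genes. In the fasted mice the gaps between pairs were 0.113 to 0.114. The median SE of the pair differences was 0.101 in fed and 0.0563 in fasted mice. Rpl5, a ribosomal protein gene, was at 305 CPM in frozen B and at 32.0 to 56.8 CPM in the other libraries, and Rpsa was at 117 CPM there and at 29.5 to 48.7 CPM elsewhere. The 77 ribosomal protein genes summed to 1008 CPM in frozen B and to 589.3 to 644.6 CPM in the others, although 0 of 73 tested passed. Rpl5 and Rpsa made up most of that excess, so the sum does not describe the list as a whole. The median log2 difference over the 73 genes and all pairs was 0.0199. Cdk8, a kinase of the mediator complex, was at 2604 CPM in frozen B and at 7080 to 9676 CPM in the other libraries. Its difference of -0.28 (adjusted p = 0.821) turned to 0.31 (adjusted p = 0.0239) when pair B was left out, and to -0.69 (adjusted p = 0.00147) when pair C was left out. The latter fit used pairs A and B, which had opposite signs, at 0.160 and -1.56.

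Leaving out pair B also changed the number of genes that passed. With pairs A and C alone 712 genes rose and 433 fell. All 176 and all 5 of the original calls were among them. Without pair C 662 rose and 31 fell, and without pair A 185 rose and 11 fell. The 281 pull-down genes that fell in pairs A and C did so by a median of 0.22 on the log2 scale. In pair B, which that fit did not use, 66.2% of them were negative, close to the 62.5% of all 5543 pull-down genes tested. In fasted mice 98.9% of them were negative, against 64.4% of the class. Of the 633 supernatant genes that rose in pairs A and C, 97.2% were also positive in pair B, against 61.4% of their class. Those increases had a median of 1.21 on the log2 scale, far larger than the decreases. The shares in pair B therefore do not compare the classes at like size of difference. The 4 pull-down genes that fell with all pairs in the fit were called using pair B, so their sign there is no separate check. Their values in pair B were -0.836 for Phb2, -0.725 for Dnajc22, -0.524 for Epm2aip1 and -0.508 for Slc30a10.

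Gene span, the distance from start to end with introns, was related to the difference mainly in pair B. Among pull-down genes the median difference in pair B was -0.413 for 98 genes under 2 kb, -0.322 for 2 to 10 kb, -0.115 for 10 to 50 kb, 0.0477 for 50 to 200 kb and 0.139 for 251 genes over 200 kb. In pair A the medians of these 5 classes lay between -0.0882 and 0.0086, and in pair C between -0.0312 and 0.0804. The share of all tested genes that rose was 0% under 2 kb, 0.227% at 2 to 10 kb, 0.785% at 10 to 50 kb, 2.54% at 50 to 200 kb and 6.41% over 200 kb. Among pull-down genes it was 0% in each class up to 200 kb and 0.398% over 200 kb. Of the 176 genes that rose, 170 were higher in supernatant, so the shares over all genes mostly describe that class. Whether depth, span or the separately numbered library bears on pair B was not tested.

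**Figure D4:**
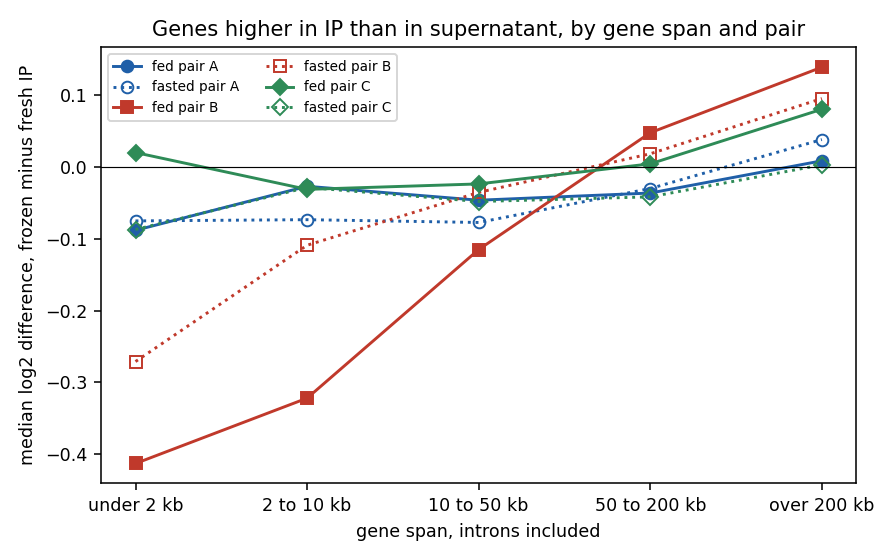
Median log2 difference between frozen and fresh pull-down (IP) for genes higher in pull-down than in supernatant, by gene span, in each pair of fed (filled marks, solid lines) and fasted mice (open marks, dotted lines). The line of fed pair B climbs from -0.413 to 0.139, that of fasted pair B from -0.271 to 0.0953, and the other pairs stay between -0.0882 and 0.0804.

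The genes called in fed mice were, where tested, also called in the far larger set of fasted mice. The fasted comparison uses other animals and shares no library with the fed comparison. Of 12720 genes tested there, 1402 rose (11.0%) and 1537 fell (12.1%). Of the 174 genes that rose in fed mice and were tested in both states, 174 rose in fasted mice as well, which is 100% of the fed calls and 12.8% of the 1359 fasted ones. All 5 decreases were shared, which is 0.326% of 1535. The median log2 difference of the shared increases was 1.79 in fed and 1.51 in fasted mice, and that of the decreases -0.493 and -0.53. The endothelial list had medians of 1.29 in fed and 1.2 in fasted mice and the Kupffer list medians of 1.86 and 1.47. Fed and fasted values were 2.85 and 2.05 for Vsig4, 2.61 and 2.09 for Adgre1, 2.63 and 1.66 for Timd4 and 2.37 and 1.21 for C1qb. They were 1.66 and 1.51 for Pecam1, 1.65 and 1.49 for Cdh5 and 5.03 and 5.37 for Acta2.

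The difference between the feeding states was tested as an interaction over the 12 pull-down libraries with the mouse as a block. By edgeR 0 of 13162 genes passed, the lowest adjusted p was 0.999, and 278 genes (2.11%) had an unadjusted p under 0.05. DESeq2 likewise called 0 genes, with 122 at an unadjusted p under 0.05. This does not show that the effects were equal. The larger number of calls in fasted mice is therefore not itself a difference in effect that this test detected, and the spread among the fasted pairs was the smaller, as given above.

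**Figure D5:**
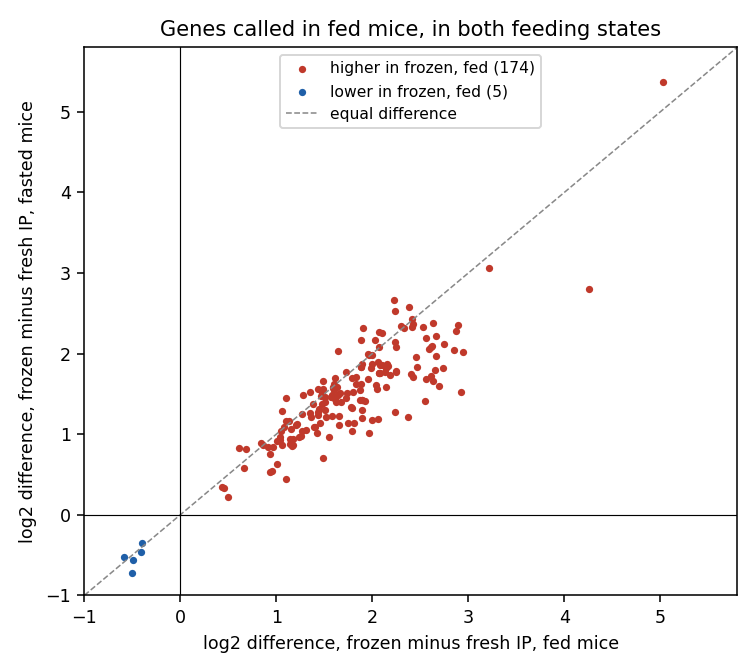
Log2 difference between frozen and fresh pull-down (IP) in fed mice (horizontal) and fasted mice (vertical) for the 179 genes called in fed mice and tested in both states, with the dashed line marking equal differences. All 174 increases (red) lie above 0 and all 5 decreases (blue) below 0 on both axes, and the increases have medians of 1.79 in fed and 1.51 in fasted mice.

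In these bulk libraries more nuclei of another cell type and more free RNA of that type on the beads cannot be told apart. Tissue state and the order of work are likewise confounded, since the labels do not say whether fresh and frozen livers were processed and sequenced together.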

How the data were processed

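The deposited values are unnormalized integer counts, made by the authors, for 20105 genes with RefSeq accessions. Per the labels' protocols, RNA from nuclei in Trizol was purified on columns with DNase digestion, and 50 to 100 ng was made into stranded libraries without poly-A selection and read as 50 bp pairs. STAR 2.4.2a, DESeq2 1.24.0 and mm10 are named in the submitters' processing notes, and neither they nor the labels name the counting tool or its strand setting. Overlapping and antisense genes and paralogs are therefore uncertain. The length in the table equals start to end, introns included, for all 20105 genes. A further 6 columns matched no sample and were not used, and the authors' table of comparisons was not used here.

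Counts were tested with edgeR 4.0.16 (glmQLFit, glmQLFTest, TMM, filterByExpr, R 4.3.3), with adjustment over all genes tested. The letters of the columns stand in no label. They were taken as pairs because every same-letter correlation of deviations exceeded 0.1 (log2 CPM with a prior count of 2, genes at 3 CPM or more), and the labels give each mouse 1 library of each kind. In fasted mice the same-letter correlations were 0.846 to 0.913 between fresh and frozen and 0.161 to 0.219 between pull-down and supernatant. SEs are over 3 pair differences of log2 CPM with a prior count of 2, while the log2 differences they follow are the values fitted by edgeR. For genes with few counts the 2 estimates can differ by more than the SE. For C1qb the fitted value was 2.37 and the mean of the pair differences 2.14. Chi-square per gene between libraries of a group was 44.5 or more, so none was counted as a duplicate. Alternatives used limma 3.58.1 (voom) and DESeq2 1.42.0. The fit was also run on simulated counts. There only genes at a mean of 3 CPM or more changed, and no pair stood apart. That run does not show how the fit performs on lower genes or with a pair like B.

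The comparison and the 26 gene lists were chosen with earlier results of these data known. Named genes were the 15 largest differences each way with the same sign in all pairs and at least 1 CPM in the higher group, the 10 each way among pull-down genes, up to 4 called members of each list (or the 2 most abundant), Sun1, Alb and the 5 most abundant genes. A gene that this rule names is not reported here. Other genes named were chosen after their values were seen. None of the nucleus-retained noncoding RNAs listed is in the table, whose accessions are all of protein-coding transcripts.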

Additional observations from a re-analysis of the deposited data

How the results depend on the processing

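The main test used the mouse as a replicate block and gave 176 increases and 5 decreases. With no replicate block it gave 0 and 0. DESeq2 with the replicate block gave 401 and 38, limma-voom 321 and 7, no filter on low counts 471 and 25, and a filter of 1 CPM in 3 libraries 118 and 3. Without genes higher in supernatant, 1 gene rose and 0 fell, and a fit over 12 pull-down libraries gave 654 and 148. Leaving out a pair gave 185 to 712 increases and 11 to 433 decreases. With no block and 1 library left out, increases ran from 0 to 58 and decreases stayed at 0, and the 58 came without fresh library C. RLE and upper-quartile scaling gave 176 and 219 increases. Of the original increases, 124 passed without pair A, 176 without pair B and 174 without pair C. Of the 76 named genes the 31 called ones all lost the call with no block, and 6 of 7 lost it without the genes higher in supernatant. Among named genes only Cdk8 changed sign with a call, to 0.306 (adjusted p = 0.0239) without pair B, and without pair C it was called lower at -0.691 (adjusted p = 0.00147). For Cdk8 the pairs left in that last fit, A and B, had opposite signs. Values near 0 that were called in no setting were not counted as reversals. The interaction with feeding state gave 0 genes in each alternative run. Frozen library B, with 13828945 counts, limits the precision of genes below 1 CPM.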
